A study of Mus musculus with 20 samples.

Results

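A set of 8 genes of fatty acid oxidation was followed in kidney and bone marrow of mice given oxaliplatin: Ppara, Ppargc1a, Cpt1a, Cpt2, Acadm, Ehhadh, Hadha and Acaa2. They were taken by symbol from the deposited gene counts of both tissues, where all 8 of 55486 listed genes were found, and all 8 passed the filter on low counts in kidney (19293 genes tested) and in marrow (22363 genes tested). Each tissue was sampled in 5 vehicle-treated and 5 oxaliplatin-treated C57BL/6 mice, 20 libraries in all. Mice were 10 weeks old and received oxaliplatin, a platinum drug that crosslinks DNA, at 10 mg/kg in 5% dextrose by intraperitoneal injection over 8 weeks, or 5% dextrose alone. Marrow was spun out of the long bones of the hind leg, 6 days past the final injection. How the kidneys were collected, and whether kidney and marrow came from the same mice, is not given in the sources used here. The methods name male and female mice, but Y-linked genes were read in all 20 libraries and Xist reached at most 2.88 CPM (counts scaled to a common library size) in any of them.

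Fatty acids are carried into mitochondria as carnitine esters: Cpt1a, on the outer membrane, makes the ester and is the usual control point, and Cpt2, on the inner membrane, turns it back into acyl-CoA. Inside, the chain is shortened by repeated rounds of dehydrogenation, hydration, a second dehydrogenation and thiolysis, while very long and dicarboxylic chains are shortened in peroxisomes. The nuclear receptor Ppara and its coactivator Ppargc1a drive many of these genes, the proximal tubule of the kidney burns fatty acids as its main fuel, and the liver above all turns the product acetyl-CoA into ketone bodies. None of the 8 genes encodes a ketogenic enzyme, so those are described with the wider pathway.

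Kidney libraries held 24393007 to 30925430 counts and marrow libraries 30660153 to 41140527. Levels in CPM were scaled by the trimmed mean of M-values (TMM). Folds and p-values come from edgeR's quasi-likelihood test, two-sided, with Benjamini-Hochberg adjustment over all genes tested, and a gene passed at an adjusted p under 0.05. The number in parentheses after a log2 fold change is its standard error. These are bulk tissues, in which fewer cells of a type and less RNA per cell cannot be told apart. In kidney, oxaliplatin mice 1 and 5 stood apart from the other 3 in several genes described below, and this pair was chosen after the data were seen. For each gene named, the value without this pair is given where it ended the call or moved the fold by over 1.5 times. Leaving the pair out shrinks by construction a change in which it lay furthest from vehicle and enlarges one in which it lay nearest. It also leaves fewer mice for the test.

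Promoter sequence was at hand for 7 of the 8 genes (RefSeq, GRCm38.p6, 250 bases before to 50 after each start), and Acaa2 was the one without. Hadha is on the minus strand of chromosome 5 and Hadhb, its partner subunit, on the plus strand, with 272 bases between their RefSeq starts. The stretch between the outermost annotated starts of the 2 genes is shown because the pair shares it and both genes are read below; capitals mark the GC box letters GGGCGG.
Hadha-Hadhb, chr5:30155163-30155247, plus strand: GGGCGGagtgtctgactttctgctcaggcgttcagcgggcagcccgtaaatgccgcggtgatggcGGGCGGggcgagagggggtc
It held GGGCGG at both positions marked, a motif found on either strand in 35.7% of all 32851 promoter windows. Cpt1a and Acadm are shown because they were the only members with the nuclear receptor core site AGGTCA, in capitals here as TGACCT on the opposite strand.
Cpt1a, chr19:3323180-3323239, plus strand: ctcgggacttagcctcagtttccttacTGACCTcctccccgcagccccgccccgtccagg
Acadm, chr3:153944834-153944893, minus strand: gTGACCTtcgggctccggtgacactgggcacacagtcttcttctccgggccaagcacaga
This core site was present in 16.3% of all windows. The full PPAR element AGGTCANAGGTCA was present in 0.0396% of windows and the estrogen-related receptor element TNAAGGTCA in 1.28%, each on either strand, and neither was found in the windows of the 7 members. These matches describe letters in a window and were not tested as binding sites.

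All 8 genes were higher in vehicle-treated kidney than in vehicle-treated marrow, in a fit of the 20 libraries together. Over all 24321 genes of that fit 80.7% passed, 38.8% as higher and 42.0% as lower in kidney. Ppara differed most, by 9.43 (0.24) on the log2 scale, followed by Ppargc1a at 7.68 (0.19) and Ehhadh at 7.44 (0.19). Hadha differed least, at 0.83 (0.10), and the other 4 genes lay between 3.05 and 4.51.

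Per kilobase of the principal transcript, Acadm, the medium-chain acyl-CoA dehydrogenase, was the most abundant member in vehicle kidney at 346 ± 21.5 CPM per kilobase (SD, n = 5). It was followed by Ehhadh at 208 ± 23.2 and Cpt1a at 177 ± 10.7, whose ranges overlapped, then by Acaa2 at 154 ± 8.22, Cpt2 at 81.4 ± 7.02, Hadha at 52.0 ± 1.12, Ppara at 35.4 ± 6.99 and Ppargc1a at 13.5 ± 0.761. In the oxaliplatin kidneys Acadm was at 222 ± 16.3 and Acaa2 at 196 ± 26.0 CPM per kilobase, and in the order Acadm, Acaa2, Ehhadh and Cpt1a each gene's range overlapped with that of its neighbour. In vehicle marrow Hadha led at 39.5 ± 4.01 CPM per kilobase, overlapping with Cpt1a at 28.9 ± 4.48, and Ehhadh was at 1.61 ± 0.448. Ppargc1a and Ppara were at 0.0875 ± 0.0368 and 0.0669 ± 0.0328 CPM per kilobase in that group, and their ranges overlapped.

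In kidney, the members moved in both directions with oxaliplatin. Cpt1a and Cpt2 of the carnitine shuttle, the dehydrogenase gene Acadm and the peroxisomal gene Ehhadh fell, 4 members in all, while 3 rose (Ppargc1a, Hadha and Acaa2) and Ppara did not pass. That is 7 of 8, where 29.4% of all genes tested in kidney passed, 14.4% as higher and 15.0% as lower. With library size alone as the scaling, 4630 genes passed as higher and 1577 as lower, against 2781 and 2898 with TMM, and the median over all genes moved from 0.025 to 0.16 on the log2 scale. The same 7 members passed in the same directions under that scaling. In all 7 the vehicle and oxaliplatin kidneys did not overlap, as was so for 20.7% of genes tested, 9.69% with the oxaliplatin group higher and 11.0% with it lower. A fold beyond 1.5 was reached by 1 member, Acadm, which fell, and by 11.5% of genes tested, 7.68% as higher and 3.80% as lower.

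**Figure D1:**
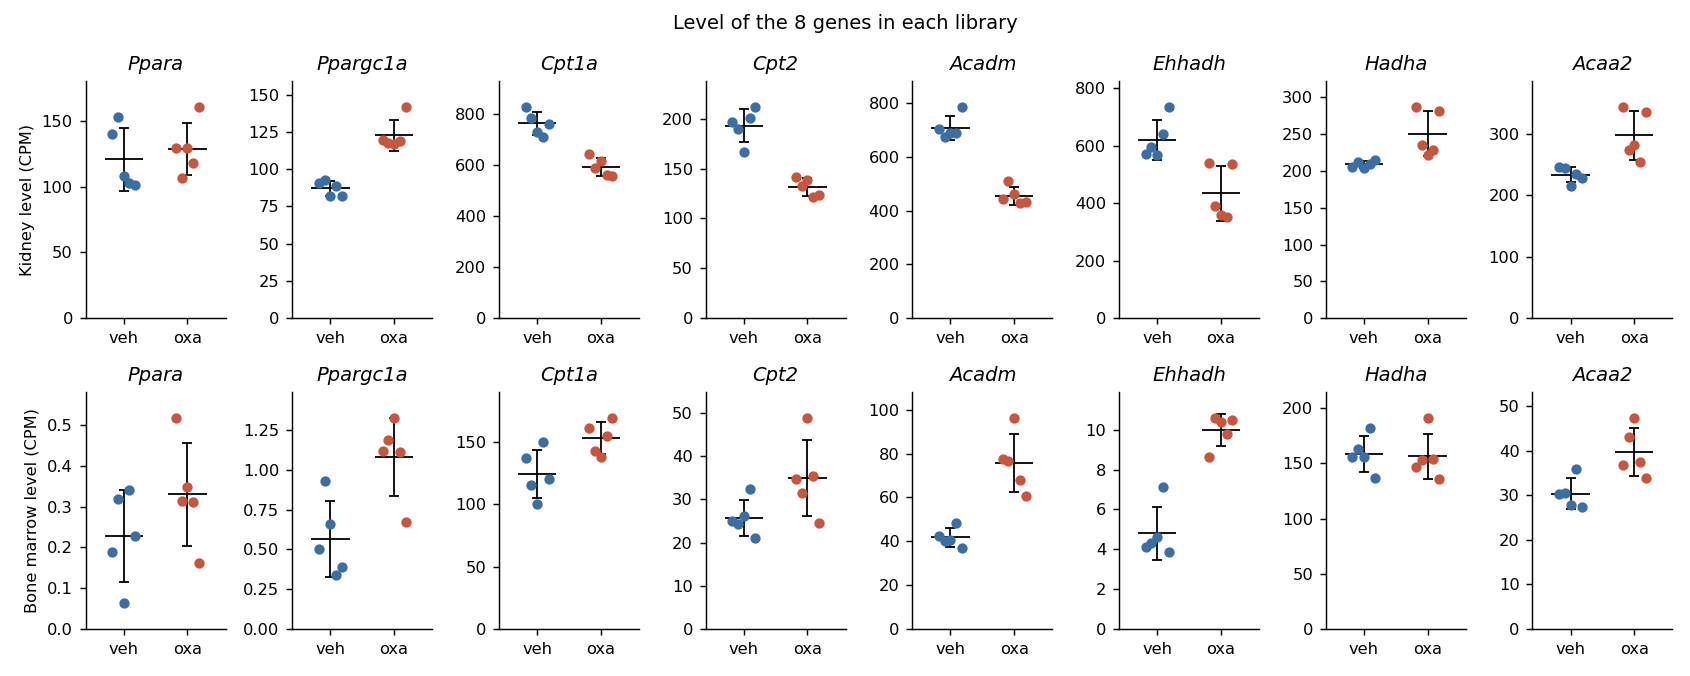
Level of each of the 8 genes in every library, kidney in the upper row and bone marrow in the lower, as TMM-scaled CPM on axes that start at 0. Points are mice, the horizontal line is the group mean and bars are 1 SD (n = 5 mice); in kidney Cpt1a, Cpt2 and Acadm of the oxaliplatin mice lie below every vehicle mouse and Ppargc1a above, while in marrow Acadm and Ehhadh lie above.

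Ppara, the fatty acid-sensing nuclear receptor (chr15:85734983-85802819, GRCm38), was at 140, 153, 108, 103 and 101 CPM in vehicle kidneys 1 to 5 and at 129, 107, 129, 118 and 160 CPM in oxaliplatin kidneys 1 to 5. The groups overlapped over most of their range. The log2 fold change was 0.09 (0.13), with a 95% confidence interval from -0.20 to 0.38 and an adjusted p of 0.651, and it was -0.027 without mice 1 and 5.

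Ppargc1a, the coactivator of mitochondrial biogenesis (chr5:51454250-51567726), was at 90.5, 92.7, 82.1, 88.5 and 81.8 CPM in the vehicle kidneys. In the oxaliplatin kidneys it was at 120, 117, 117, 119 and 141 CPM, and every one of them was above every vehicle kidney. It rose by 40.9%, a log2 fold change of 0.49 (0.07) with an adjusted p of 6.87e-05 by edgeR.

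Of the carnitine shuttle, Cpt1a (chr19:3322334-3385733) was at 826, 786, 731, 709 and 762 CPM with vehicle and at 643, 587, 615, 559 and 557 CPM with oxaliplatin. All 5 oxaliplatin kidneys were below the lowest vehicle kidney. Its log2 fold change was -0.37 (0.07), with an adjusted p of 9.35e-04 by edgeR, so that the level fell by 22.4%.

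Cpt2 (chr4:107903981-107923610) was at 197, 190, 167, 201 and 211 CPM with vehicle and at 141, 133, 138, 121 and 124 CPM with oxaliplatin. The groups did not overlap. It fell by 31.9%, a log2 fold change of -0.56 (0.07) with an adjusted p of 3.84e-05.

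Acadm, which opens the oxidation of medium-length chains (chr3:153922357-153944632), was at 705, 672, 689, 688 and 783 CPM with vehicle and at 444, 509, 462, 427 and 430 CPM with oxaliplatin. Even the highest oxaliplatin kidney was well below the lowest vehicle kidney. It fell by 35.8%, a log2 fold change of -0.64 (0.07) with an adjusted p of 1.02e-05.

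Hadha, the subunit of the mitochondrial trifunctional protein that hydrates and dehydrogenates long chains (chr5:30118304-30155162), was at 205, 212, 204, 209 and 215 CPM with vehicle. With oxaliplatin it was at 286, 235, 222, 229 and 281 CPM, above every vehicle kidney, with mice 1 and 5 the highest. The log2 fold change was 0.26 (0.08), with an adjusted p of 0.0160 by edgeR. Without mice 1 and 5 it was 0.14 and did not pass (adjusted p = 0.138). Hadhb, which encodes the thiolase subunit and starts across the stretch shown above, was named after its values were seen: it was at 118 ± 5.95 CPM with vehicle and 136 ± 8.72 with oxaliplatin (SD, n = 5) and rose by 0.20 (0.06) on the log2 scale (adjusted p = 0.0260 by edgeR). Without mice 1 and 5 its call was lost too (adjusted p = 0.137 by edgeR). Mice 1 and 5 were the highest for Hadha, so leaving them out shrinks the rise of Hadha by construction.

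Acaa2, the mitochondrial thiolase that releases acetyl-CoA (chr18:74779197-74806208), was at 247, 244, 216, 234 and 229 CPM with vehicle and at 343, 274, 281, 254 and 336 CPM with oxaliplatin. The groups did not overlap, and mice 1 and 5 were again the highest. It rose by 0.35 (0.08) on the log2 scale (adjusted p = 0.00475), and by 0.22 without these mice (adjusted p = 0.0345 by edgeR).

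Ehhadh, the peroxisomal bifunctional enzyme (chr16:21761287-21787807), was at 570, 593, 567, 640 and 732 CPM with vehicle and at 539, 388, 359, 350 and 537 CPM with oxaliplatin. All oxaliplatin kidneys were below all vehicle kidneys, but mice 1 and 5 were close to the lowest of them. It fell by 0.51 (0.13) on the log2 scale (adjusted p = 0.00882), and by 0.75 without mice 1 and 5 (adjusted p = 7.76e-06 by edgeR). These mice, chosen after the data were seen, lay nearest to vehicle here, so leaving them out enlarges the fall by construction.

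**Figure D2:**
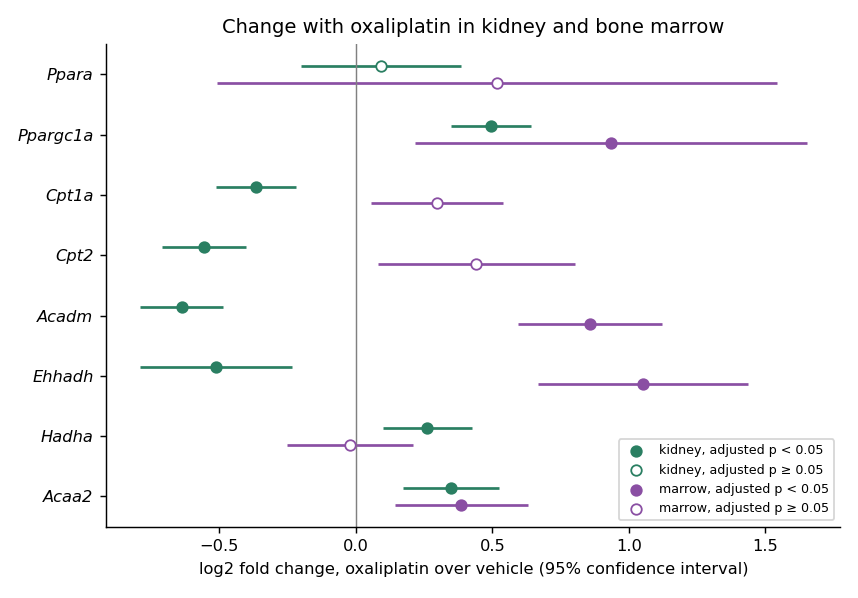
Log2 fold change of each of the 8 genes, oxaliplatin over vehicle, in kidney (green) and bone marrow (purple), with 95% confidence intervals from edgeR. Filled points passed an adjusted p under 0.05; Cpt1a, Cpt2, Acadm and Ehhadh lie left of 0 in kidney and right of 0 in marrow, whereas Acaa2 lies near 0.35 and 0.39.

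Ratios between members within a library do not depend on its scaling. The log2 ratio of Hadha to Acadm counts in kidney was -1.87 to -1.66 in the vehicle libraries and -1.11 to -0.61 in the oxaliplatin libraries. That of Acaa2 to Acadm was -1.78 to -1.46 and -0.89 to -0.36. That of Ehhadh to Hadha was 1.47 to 1.77 and 0.61 to 0.93. For each of the 3 ratios the ranges of the groups did not overlap, so these members shifted against each other within libraries. The ratios were not tested.

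The wider pathway was read from 7 lists with 102 genes besides the members, 101 of them tested in kidney. Of these, 11 rose and 50 fell, with a median log2 fold change of -0.23, against 0.025 over all genes tested. The fall ran through the enzyme lists: 12 of 17 genes of mitochondrial beta-oxidation, 13 of 18 of peroxisomal beta-oxidation and 6 of 10 of ketone body synthesis and use fell. In the mitochondrial list the short-chain dehydrogenase Acads fell by 0.74 (0.11) on the log2 scale, Acad9, which also serves in the assembly of complex I, by 0.59 (0.08) and the long-chain dehydrogenase Acadl by 0.50 (0.06), and Hadhb was the only gene of that list to rise. In the peroxisomal list Amacr, which converts branched-chain acyl-CoA stereoisomers, fell by 1.76 (0.19), from 426 to 126 CPM. Hacl1, a lyase of alpha-oxidation, and the transporter Abcd2 rose by 0.85 (0.27) and 1.49 (0.54), but from 2.76 and 0.266 CPM, and neither passed without mice 1 and 5 (adjusted p = 0.315 and 0.120 by edgeR).

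Of the ketone body genes, Aacs, which activates acetoacetate in the cytosol, fell by 1.33 (0.23) on the log2 scale, Bdh1, which interconverts acetoacetate and 3-hydroxybutyrate, by 0.95 (0.12) and Acat1, the mitochondrial acetoacetyl-CoA thiolase, by 0.83 (0.08). The transporter gene Slc16a7 was the only one to rise, by 0.70 (0.06).

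Uptake and shuttle genes moved in both directions. Of 15 uptake and activation genes 3 rose and 7 fell, with Acsm3, a medium-chain acyl-CoA synthetase, down by 2.40 (0.71) on the log2 scale from a mean of 486 to 92.0 CPM and down by 1.77 (0.26) without mice 1 and 5, the fatty acid transporter Cd36 down by 1.25 (0.12), and the lipid chaperone Fabp4 up by 1.55 (0.24). Of 10 shuttle and malonyl-CoA genes 2 rose and 5 fell: Crot, the peroxisomal carnitine octanoyltransferase, fell by 1.11 (0.12) and Mlycd, which removes malonyl-CoA, by 0.70 (0.09), while Cpt1c rose by 1.34 (0.19) from 1.74 CPM. Of 12 regulators Pparg rose by 1.00 (0.25), from 1.99 CPM, and Rxrb, Esrra, Tfam and Ncor1 fell by 0.31 (0.09), 0.31 (0.10), 0.25 (0.07) and 0.24 (0.06). Esrra and Tfam did not pass without mice 1 and 5 (adjusted p = 0.0988 and 0.0844 by edgeR). Of the 19 PPAR target genes outside beta-oxidation that were tested, Cyp4a14 rose and Cyp4a12a, Cyp4b1 and Plin2 fell by 2.03 (0.45), 1.33 (0.16) and 0.23 (0.08), and 15 did not pass. Cyp4a12a has a near-identical copy, Cyp4a12b, so its reads may be divided between them.

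**Figure D3:**
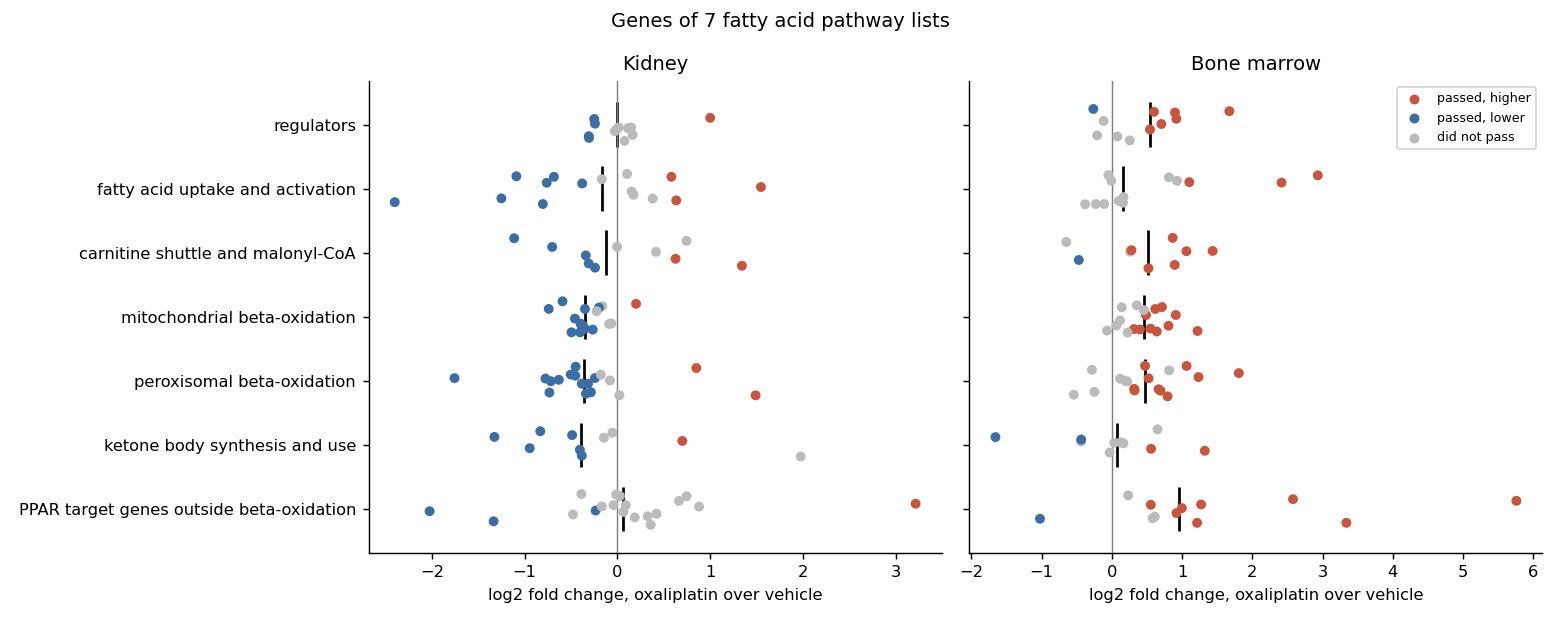
Log2 fold change, oxaliplatin over vehicle, of the genes of 7 pathway lists in kidney (left) and bone marrow (right), with members left out. Points are genes, coloured by whether they passed an adjusted p under 0.05 and in which direction, and the black bar is the list's median; the mitochondrial and peroxisomal lists have medians of -0.35 and -0.36 in kidney and 0.46 and 0.47 in marrow.

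The kidneys of oxaliplatin mice 1 and 5 lay apart from the other 3 in fatty acid genes in both directions. Cyp4a14, a fatty acid omega-hydroxylase, was at 570 and 643 CPM in these mice, at 87.4 to 219 CPM in the other 3 and at 6.43 to 51.7 CPM with vehicle. It rose by 3.22 (0.78) on the log2 scale (adjusted p = 0.0153 by edgeR), and by 2.00 (0.63) without this pair, when it did not pass (adjusted p = 0.0784). The pair was the highest for Cyp4a14, so leaving it out shrinks that rise by construction. Cyp4a10, its close relative, and Acsl1, the long-chain acyl-CoA synthetase, were named after their values were seen. Cyp4a10 was at 515 and 562 CPM in mice 1 and 5, at 241 to 255 in the other 3 and at 121 to 267 with vehicle. Acsl1 was at 419 and 407 CPM, at 219 to 245 and at 205 to 260 in the same order. Neither gene passed across the 5 mice. Other genes were lowest in mice 1 and 5. Acsm3 was at 24.7 and 10.8 CPM in them, at 102 to 170 CPM in the other 3 and at 363 to 633 CPM with vehicle. Acsm2, a related synthetase named after its values were seen, was at 1328 and 1185 CPM, at 2380 to 2767 and at 4170 to 4599 in the same order. Crot was at 119 and 110 CPM against 158 to 181 in the other 3, and Cd36 at 103 and 102 CPM against 140 to 148. Acsm2, Crot and Cd36 fell with and without the pair. Acadm, Cpt1a and Cpt2 did not share the split, and fell by 0.59, 0.37 and 0.55 on the log2 scale without mice 1 and 5. Without the pair of mice, 57 of the 101 pathway genes and 6 members passed, of which 4 members fell and 2 rose, where 19.5% of all genes tested passed, 9.75% as higher and 9.73% as lower. Of the 61 pathway genes that passed over all mice, 53 still did.

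**Figure D4:**
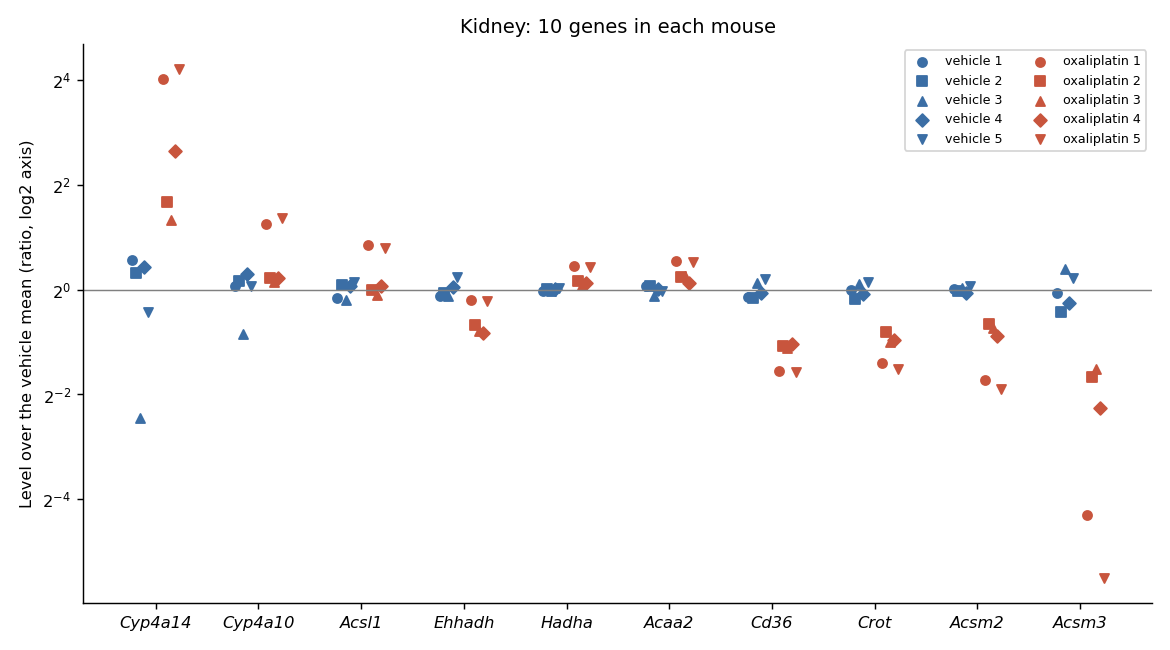
Level of 10 genes in each kidney, divided by the mean of the 5 vehicle kidneys, on a log2 axis. Each symbol is a mouse, blue with vehicle and red with oxaliplatin; oxaliplatin mice 1 (circle) and 5 (downward triangle) lie above the other 3 in the 6 genes from Cyp4a14 to Acaa2 and below them in the 4 from Cd36 to Acsm3.

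Marker genes of the tubule, of injury and of macrophages moved in the same kidneys. Of 16 proximal tubule markers 8 fell and 2 rose, and their summed level was 30697 to 35533 CPM with vehicle and 22685 to 27162 CPM with oxaliplatin. The 2 most abundant, the phosphate transporter gene Slc34a1 and the acyl-CoA synthetase gene Slc27a2, fell by 0.28 (0.10) and 0.80 (0.08) on the log2 scale, and Slc27a2 is also counted in the uptake list. Slc34a1 did not pass without mice 1 and 5 (adjusted p = 0.229). Of 11 markers of the loop, distal tubule and collecting duct that were tested, 3 rose and 8 did not pass, with a sum of 4946 to 5807 CPM with vehicle and 6066 to 6679 with oxaliplatin. Of 6 adipocyte markers tested, 3 rose, with a sum of 187 to 239 CPM with vehicle and 189 to 382 with oxaliplatin, most of it Pnpla2, and oxaliplatin mice 1 and 5 had the highest sums, 382 and 275. Of 7 injury markers tested 3 rose: Cdkn1a, the p53-induced cell cycle inhibitor, by 5.25 (0.31) on the log2 scale, Lcn2 by 2.06 (0.29) and Spp1 by 0.93 (0.08). Their sum, led by Spp1 and Clu, was 497 to 568 CPM with vehicle and 796 to 942 with oxaliplatin, without overlap, and Havcr1, a defining marker of tubule injury, was at 0.935 CPM on average with vehicle and 1.01 with oxaliplatin and did not pass. Of 9 macrophage and monocyte markers tested 4 fell (Csf1r, C1qa, C1qb and Adgre1) and Mrc1 rose. Their sum, led by Csf1r and C1qb, was 109 to 139 CPM with vehicle and 67.8 to 81.3 with oxaliplatin, again without overlap. Mrc1 did not pass without mice 1 and 5 (adjusted p = 0.0723 by edgeR). The part of these cell types and of injury in the falls and rises above was not tested.

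In marrow, 4 members rose with oxaliplatin (Ppargc1a, Acadm, Ehhadh and Acaa2) and 4 did not pass. Over all genes tested in marrow 33.1% passed, 16.3% as higher. With library size alone 5369 genes passed as higher and 2713 as lower, against 3650 and 3763 with TMM, and the median over all genes moved from -0.038 to 0.11 on the log2 scale. Of the members, 2, Acadm and Ehhadh, had groups that did not overlap, as had 24.9% of genes tested, 11.4% with the oxaliplatin group higher. Beyond 1.5-fold, 3 members rose (Ppargc1a, Acadm and Ehhadh), where 23.3% of genes tested passed with such a fold, 11.6% as higher.

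The regulators were read at low counts in marrow. Ppara had 2 to 12 counts with vehicle and 6 to 18 with oxaliplatin, at 0.0629 to 0.342 and 0.162 to 0.518 CPM, and the groups overlapped (log2 fold change 0.52 (0.47), adjusted p = 0.446). A count of 3 in a library correspond to 0.0667 to 0.0974 CPM here, a limit that covers counting error only. Ppargc1a had 12 to 32 counts with vehicle, at 0.506, 0.930, 0.661, 0.342 and 0.389 CPM, and 25 to 57 with oxaliplatin, at 1.12, 1.19, 1.33, 1.11 and 0.673 CPM. Only oxaliplatin mouse 5 lay within the vehicle range. Its log2 fold change was 0.93 (0.33), with an adjusted p of 0.0459 by edgeR, and the call was lost when any 1 of 8 of the 10 libraries was left out, as listed in the closing section.

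Acadm rose most clearly in marrow. It was at 42.5, 40.3, 40.5, 48.5 and 37.0 CPM in vehicle marrows 1 to 5 and at 77.3, 76.7, 96.2, 67.8 and 60.5 CPM in oxaliplatin marrows 1 to 5. Every oxaliplatin marrow was above every vehicle marrow. It rose by 81.3%, a log2 fold change of 0.86 (0.12) with an adjusted p of 1.36e-04 by edgeR.

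Ehhadh was at 4.11, 4.33, 4.59, 7.15 and 3.86 CPM with vehicle, where mouse 4 was the highest, and at 8.63, 10.6, 10.4, 9.78 and 10.5 CPM with oxaliplatin. The oxaliplatin marrows were close together and all above the vehicle marrows. It rose 2.07-fold, a log2 fold change of 1.05 (0.18) with an adjusted p of 5.26e-04 by edgeR.

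Acaa2 was at 30.4, 30.5, 27.7, 35.9 and 27.3 CPM with vehicle and at 36.7, 43.2, 47.3, 37.5 and 33.8 CPM with oxaliplatin. Oxaliplatin mouse 5 and vehicle mouse 4 made the groups overlap. The log2 fold change was 0.39 (0.11), with an adjusted p of 0.0181 by edgeR, and the call was lost without vehicle mouse 3 (adjusted p = 0.0539) or vehicle mouse 5 (adjusted p = 0.0524).

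The carnitine palmitoyltransferase genes did not pass in marrow. Cpt1a was at 101 to 150 CPM with vehicle, with a median mouse at 120, and at 138 to 169 CPM with oxaliplatin, with a median mouse at 154. Its log2 fold change was 0.30 (0.11), with an adjusted p of 0.0580 by edgeR. Cpt2 was at 21.1 to 32.5 CPM with vehicle and at 24.4 to 48.8 CPM with oxaliplatin, where mouse 3 was the highest, and its log2 fold change was 0.44 (0.17), with an adjusted p of 0.0593. Both lay just above the threshold and passed under DESeq2 (adjusted p = 0.0214 and 0.0338). Hadha was at 137 to 182 CPM with vehicle and 136 to 191 CPM with oxaliplatin, with a log2 fold change of -0.02 (0.11), a 95% confidence interval from -0.25 to 0.21 and an adjusted p of 0.904; the sign turned to 0.13 with library size alone and to 0.02 with median ratio scaling.

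The log2 ratio of Hadha to Acadm counts was 1.87 to 2.02 in vehicle marrow and 0.92 to 1.19 in oxaliplatin marrow, lower in every oxaliplatin library. In kidney the same ratio was higher in every oxaliplatin library.

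Of the 89 other pathway genes tested in marrow, 45 rose and 5 fell, with a median log2 fold change of 0.49, against -0.038 over all genes tested. Among the mitochondrial genes 10 of 17 rose, led by Hadh, the short-chain hydroxyacyl-CoA dehydrogenase, at 1.22 (0.18) on the log2 scale, the electron transfer subunit Etfb at 0.91 (0.17) and Decr1, which handles unsaturated chains, at 0.81 (0.20). Among the peroxisomal genes 10 of 17 rose, among them Pex11a, a factor of peroxisome division, at 1.23 (0.23), and Acaa1b, a thiolase, at 1.81 (0.38) but from 0.515 CPM. Acaa1b is nearly identical to Acaa1a, so the division of reads between them is uncertain.

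In the shuttle list 6 of 9 genes rose, with the carnitine-acylcarnitine carrier Slc25a20 at 1.06 (0.12), Acacb, which makes malonyl-CoA, at 1.44 (0.23) and Cpt1c at 0.90 (0.20) on the log2 scale. Of the 11 regulators tested Klf15, Lpin1 and Pparg led 6 that rose, at 1.67 (0.26), 0.92 (0.10) and 0.90 (0.15). Of 13 uptake genes Fabp4, Slc27a1 and Fabp5 rose, at 2.93 (0.29), 2.42 (0.32) and 1.10 (0.18). Of 12 PPAR targets tested 8 rose, with Pdk4, the kinase that turns off pyruvate dehydrogenase, at 3.34 (0.16) and Angptl4, a secreted lipase inhibitor, at 2.58 (0.26). Pdk4 was at 1.38 to 2.01 CPM in the vehicle marrows and 15.4 to 23.2 CPM in the oxaliplatin marrows. Vnn1, a pantetheinase, also rose, from 0 to 0.0632 CPM, which is under the limit set by 3 counts, to 0.532 to 2.68 CPM.

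The 5 that fell were Slc16a1, the monocarboxylate and ketone body transporter, by 1.66 (0.21) on the log2 scale, Ucp2 by 1.02 (0.14), Crat by 0.47 (0.10), Slc16a6 by 0.44 (0.08) and Ncor1 by 0.26 (0.09), of which Ucp2, Crat and Ncor1 were named after their values were seen. Bdh1 and Oxct1, which use ketone bodies, rose by 1.32 (0.28) and 0.56 (0.12).

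Markers of several cell types moved with these rises in marrow, adipocyte and muscle markers upward and erythroid and B cell markers downward. All 8 adipocyte markers tested rose, and the ninth, Ucp1, was at or near 0 (at most 0.0632 CPM). Their summed level was 114 to 157 CPM with vehicle and 2145, 911, 1991, 2136 and 462 CPM in oxaliplatin mice 1 to 5, led by Cfd, the adipocyte protease adipsin, and the lipase gene Pnpla2. In oxaliplatin mouse 5, which had the lowest sum, Acadm was at 60.5 CPM, the lowest of its group, and Ehhadh at 10.5 CPM, the second highest. A further fit left out oxaliplatin mice 1, 3 and 4, which had the highest sums and were chosen after these were seen. Mice 2 and 5 remained, at 911 and 462 CPM, still above every vehicle marrow. All 8 adipocyte markers still passed, at log2 fold changes from 1.27 (Lipe) to 6.62 (Lep), so this fit did not remove the adipocyte difference. The log2 fold change there was 0.77 for Acadm (adjusted p = 2.35e-04), 1.18 for Ehhadh (0.00130) and 0.40 for Acaa2 (0.0346), and Ppargc1a did not pass (0.283), by edgeR. In that fit 50 pathway genes, 2 of them tested only there, and 4 members passed, Cpt1a among them (0.0466), where 27.2% of all genes tested passed, 14.4% as higher and 12.8% as lower. Of the 50 pathway genes that passed over all mice 41 still did, and Decr1, Acaa1b and Ncor1 were among the 9 that did not (adjusted p = 0.0972, 0.124 and 0.263). The log2 fold changes of Slc27a1 and Fabp4 were 1.76 and 2.28, and both passed. Of the 89 pathway genes tested in both fits, 7 passed only in this one. The transporter Cd36, named after its values were seen, was among them and was lower. Its log2 fold change was -1.29 (0.30) there (adjusted p = 0.0174 by edgeR), against -0.05 over all mice (adjusted p = 0.942). Several pathway genes, Fabp4, Plin2, Pparg and Angptl4 among them, are also abundant in adipocytes.

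**Figure D5:**
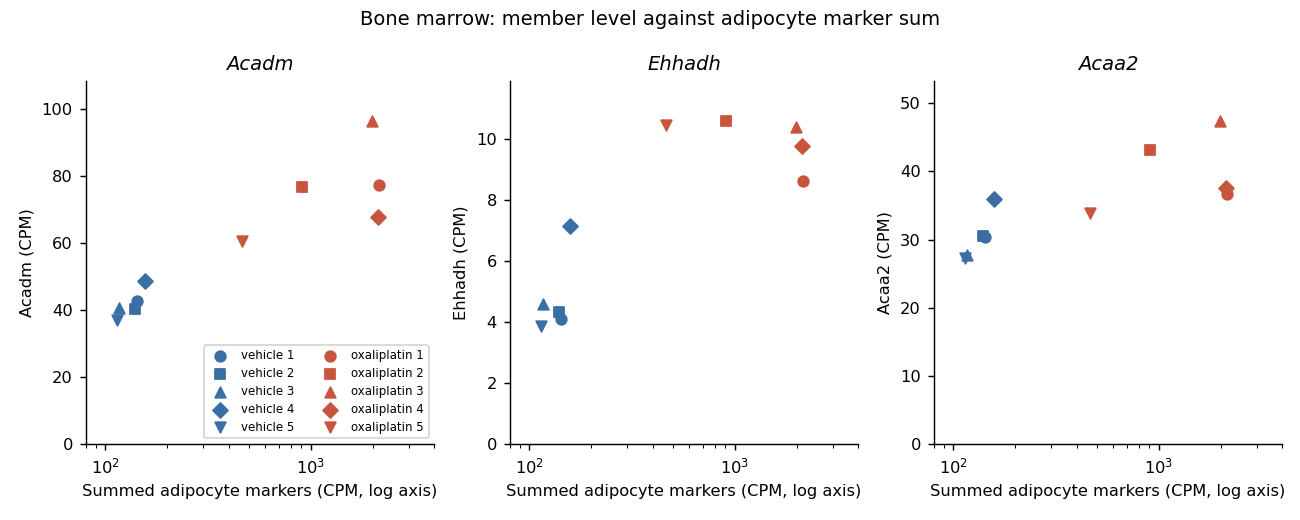
Level of Acadm, Ehhadh and Acaa2 in each marrow library (CPM) against the summed level of 9 adipocyte markers (CPM, log axis). Each symbol is a mouse, blue with vehicle and red with oxaliplatin; the oxaliplatin mice lie between 462 and 2145 CPM of markers, and Ehhadh is near 10 CPM in 4 of the 5.

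Of 9 skeletal muscle markers tested 7 rose, but with overlap in every one. Their sum, led by Myh4 and Acta1, was 11.2 to 113 CPM with vehicle and 437, 373, 865, 49.9 and 404 CPM in oxaliplatin mice 1 to 5, and Tnnc2 was at or near 0. In mouse 4, whose sum lay within the vehicle range, Acadm was at 67.8 CPM and Ehhadh at 9.78 CPM, above every vehicle marrow. The adipocyte sum of mouse 4 was 2136 CPM, against 114 to 157 with vehicle. Of 12 erythroid markers 11 fell, and their sum, led by Hba-a1 and Hbb-bs, was 26655 to 45006 CPM with vehicle and 4129 to 8675 with oxaliplatin. Of 8 B cell markers 7 fell, and their sum, led by Ebf1 and Pax5, was 319 to 568 CPM with vehicle and 92.7 to 147 with oxaliplatin. Of 10 macrophage and monocyte markers 5 rose (Cd68, C1qa, C1qb, Csf1r and Mrc1), with a sum of 1591 to 2017 CPM with vehicle and 1522 to 3266 with oxaliplatin, led by Vcam1, which did not pass, and Mrc1. The 10 neutrophil markers had log2 fold changes from -0.52 to 0.16, with adjusted p from 0.298 to 0.899 by edgeR. Their sum, led by Ngp and S100a9, was 9798 and 11857 CPM in oxaliplatin mice 3 and 4 and 19898 to 28202 CPM in the other 8 marrows. Oxaliplatin mouse 3 had the highest Acadm, Cpt2 and Acaa2 levels. With the hemoglobin genes left out, Acadm, Ehhadh, Acaa2 and Ppargc1a still passed. The part of the changed cell mixture in the members' rises was not tested.

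The difference between the tissues was tested directly as the tissue by treatment interaction over the 20 libraries. Of the members, 4 passed, each lower in kidney than in marrow, where 30.1% of 24321 genes passed and 17.0% in that direction. The log2 change in kidney minus that in marrow was -1.56 (0.16) for Acadm (adjusted p = 1.45e-07), -1.63 (0.21) for Ehhadh (4.52e-06), -1.06 (0.20) for Cpt2 (2.86e-04) and -0.72 (0.13) for Cpt1a (2.59e-04), all by edgeR. For Cpt1a and Cpt2 the kidney falls passed on their own and the marrow values did not.

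The other 4 did not pass. The difference was -0.10 for Acaa2, with a 95% confidence interval from -0.42 to 0.21, 0.22 for Hadha (-0.08 to 0.52), -0.50 for Ppargc1a (-1.02 to 0.01) and -0.47 for Ppara (-1.27 to 0.33). Acaa2 and Ppargc1a passed as higher in both tissues on their own.

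The wider pathway was read in the same way. Of its 101 genes in the joint fit, 59 passed as lower in kidney than in marrow and 5 as higher, including 14 of 17 mitochondrial genes and 13 of 18 peroxisomal genes as lower. Of the 89 genes tested in both tissues, 20 (22.5%) fell in kidney and rose in marrow, as did 3.54% of all 17507 genes tested in both. Another 8 (8.99%, against 4.85% of all genes) rose in both and 2 (2.25%, against 2.04%) fell in both.

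Across mice, the genes most like the mean of the 8 members, after each group's mean was taken out, were Hs2st1 (Pearson r = 0.97), Pcx (0.95) and Vnn1 (0.94) in kidney and Surf1 (0.98), Hsd17b4 (0.97) and Atl3 (0.96) in marrow, each over 10 mice. These values describe libraries that share depth and scaling, and Hsd17b4, the D-bifunctional enzyme of peroxisomes, is in the pathway lists, as is Vnn1.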

How the data were processed

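Total RNA of kidney and bone marrow was sequenced in 20 libraries. The deposited files hold raw counts per gene, which the authors made by aligning reads with STAR to an Ensembl mouse genome and keeping those with 1 unambiguous place for the count; the submitters' processing notes name featureCounts, and the sources differ in STAR version and library kit. Strand use is not given in the sources used here, so reads of overlapping genes on opposite strands (Garem2 at the end of Hadha) could not be told apart. Of 55774 lines per table, 287 that repeated an earlier line exactly and 1 that lacked a value were dropped. Positions came from GENCODE M21 (GRCm38).

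Groups followed the labels. Each tissue was filtered with filterByExpr (minimum count 10), scaled by TMM and tested with edgeR 4.0.16 (robust quasi-likelihood, treatment as the only term; R 4.3.3, limma 3.58.1) in its 10 libraries; the interaction and the vehicle comparison used all 20. Intervals are 95%. The labels call the libraries of a group biological replicates, and each was taken as 1 mouse. No pair of libraries agreed within sampling noise. Steps were tested on simulated data. The members and gene lists were chosen with earlier results of these data known. Besides the members, genes were named by rule: in each list and tissue the 3 passing genes with the largest change and every passing gene where 5 or fewer passed, the 2 most abundant genes of each marker list, and the 3 most alike genes, with exceptions stated. Alternatives were DESeq2 1.42.0, median ratio scaling, library size alone, 2 other count filters, a replicate block, a Y-linked covariate, hemoglobin genes left out, a fold beyond 1.5, and libraries left out. Same-numbered vehicle and oxaliplatin mice are different mice. Figures were drawn with matplotlib. Some single pathway genes are not reported here.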

Additional observations from a re-analysis of the deposited data

Results flagged for a closer look

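In 2 groups a single mouse lay apart from the others by Dixon's criterion, which flags about 1 in 20 groups by chance. Ppargc1a was at 141 CPM in the kidney of oxaliplatin mouse 5, against 117 to 120 CPM in the other 4 oxaliplatin kidneys. Ehhadh was at 7.15 CPM in the marrow of vehicle mouse 4, against 3.86 to 4.59 CPM in the other 4 vehicle marrows.

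The response to oxaliplatin differed between the tissues in 4 members by the interaction test of edgeR. The log2 change in kidney minus that in marrow was -0.72 for Cpt1a, -1.06 for Cpt2, -1.56 for Acadm and -1.63 for Ehhadh.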

How the results depend on the processing

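In kidney, the direction and the call of the members held in 144 of 152 member values over all alternatives. Requiring a fold beyond 1.5 as well left 2215 genes (1481 higher, 734 lower), 29 pathway genes and 1 member, by construction. Library size alone gave 4630 genes higher and 1577 lower in kidney. Ppara turned to -0.027 without oxaliplatin mice 1 and 5 (chosen after seeing the data). Leaving out each mouse in turn gave 4615 to 5771 genes and 7 members in kidney, and 6246 to 7892 genes and 2 to 5 members in marrow, with 2 without vehicle mouse 3 or vehicle mouse 5.

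In marrow, 120 of 159 member values kept direction and call. Hadha in marrow, near 0, turned to 0.022 under DESeq2 and under median ratio scaling, 0.13 with library size alone, 0.0047 with at least 10 counts in every library, 0.069 with the Y-linked covariate, 0.013 without hemoglobin genes, and lay between -0.10 and 0.068 with single mice left out (0.032 without vehicle mouse 4, 0.0031 without oxaliplatin mouse 1 and 0.068 without oxaliplatin mouse 5). Ppargc1a in marrow lost its call with a filter of 1 count in any library (adjusted p = 0.0855) and without vehicle mouse 1, 3, 4 or 5 or oxaliplatin mouse 1, 2, 3 or 4 (0.0669 to 0.106, edgeR). Cpt1a passed in marrow under 9 of the alternatives and Cpt2 under 7, single mice left out included. In the interaction, 197 of 200 member values kept direction and call, and Ppargc1a passed without marrow vehicle mouse 2 (0.0194) or oxaliplatin mouse 5 (0.0226) and Hadha without marrow oxaliplatin mouse 3 (0.0400). The causes were not tested.

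Same-numbered mice did not deviate together (correlations -0.15 to 0.08 in kidney and -0.12 to 0.23 in marrow), and 1 of 5 vehicle mice in each tissue correlated best with its own number. With the number as a replicate block, 4758 genes and 7 members passed in kidney and 6808 genes and 5 members in marrow, where Ppargc1a did not pass (adjusted p = 0.0514) and Cpt1a (0.0434) and Cpt2 (0.0290) did; the interaction called the same 4 members by count. Kidney Ppara was read at 2499 to 5352 counts, and its groups overlapped. Ppara and Ppargc1a in marrow were read at 2 to 57 counts, so their values there are limited by depth.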
